A study of Homo sapiens with 6 samples.

Results

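Gamma, classical and CER satellite RNA was followed in H1 human embryonic stem cells, an established pluripotent line, in which a doxycycline-inducible hairpin targets EXOSC3. The members were chosen by sequence name alone: any name that starts with GSAT or HSAT, or that equals CER, without the alpha satellites (ALR) and ACRO1. This gave 9 of the 1047 sequences in the deposited tables, namely 3 gamma satellites (GSAT, GSATII and GSATX), 5 HSAT sequences (HSATI, HSATII, HSAT4, HSAT5 and HSAT6) and CER. Each name stands for a repeat consensus, which represents many genomic copies and has no single genomic position.

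There were 4 groups, all of them H1 cells at passages 40 to 60 that carry the EXOSC3 hairpin and grow under puromycin and Blasticidin S. EXOSC3r cells carried a hairpin-resistant EXOSC3 transgene and were measured as 2 clones with doxycycline (dox) and the same 2 clones without it. PB cells carried an empty vector and were measured as 1 line, in 1 library with dox and 1 without. The promoter of the transgene is not given in the sources used here, and EXOSC3 RNA was not analysed here, so neither its depletion nor its replacement was checked. No library lacked the hairpin, so dox or hairpin expression itself and loss of EXOSC3 cannot be told apart within a line.

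Satellites are tandem repeats, many of which lie in the constitutive heterochromatin at and around centromeres. Gamma satellites are GC-rich pericentromeric repeats, HSATI is an AT-rich classical satellite, and HSATII is a pericentromeric classical satellite built from diverged short repeats, whose RNA is known for its accumulation in epithelial cancers. CER is a tandem repeat described from centromeric DNA. EXOSC3 encodes a subunit of the RNA exosome, which shortens and destroys RNA starting at the 3' end, and in fission yeast the nuclear exosome takes part in the removal of transcripts from pericentromeric repeats.

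The libraries held between 3745262 and 5260196 estimated counts assigned to the 1047 sequences, which is the depth behind every value here and not the depth of sequencing. Alu took between 32.99% and 52.5% of these counts, with the lowest share in PB cells with dox and the highest in EXOSC3r clone 1 with dox. Because of this spread, levels are given as CPM scaled by TMM, a scaling that holds the typical sequence level between libraries, and differences in CPM are relative to that typical sequence. With the other scalings (DESeq2 size factors, shares of assigned counts, ACTB and GAPDH, or deposited TPM) several directions turn, as given beside the comparisons. The scaling factors lay between 0.744 and 1.21. No marker genes could be set against the labelled cell type. HERVH, a retroviral sequence whose RNA marks human pluripotent cells, had the sixth highest count of all sequences in each of the 6 libraries (rank 6).

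The members were rare, and a pair of them held most of their reads. All 9 together had 3064 estimated counts over the 6 libraries, between 88.5 and 157 of every 1000000 assigned counts in a library. HSAT5 and CER held 86.5% of those counts. Every member's estimated count was whole in all 6 libraries within 0.001, whereas 41.7% of the positive values of all sequences were whole, so no fractional division of a read between a member and another sequence is seen in the deposited values. HSAT5 had between 182 and 321 counts per library and CER between 141 and 264.

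GSATII had between 35 and 44 counts per library, HSATII between 10 and 20, and HSAT4 between 0 and 13. GSAT had 1 to 5 counts, HSATI 1 to 5 and GSATX 1 to 3. HSAT6 was the name with no reads, with 0 counts in every library, which allows up to 0.801 in 1000000 assigned counts in the shallowest library, EXOSC3r clone 2 with dox, and 0.570 in the deepest, EXOSC3r clone 1 with dox. These limits and the intervals below cover counting error only.

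Per length, HSAT5 stood first among the members and CER second in 6 of 6 libraries. HSAT5 had between 590 and 1402 TPM, against 38.0 to 85.8 TPM for CER. TPM divides by effective length, which is 16.6 bases for the 86-base HSAT5 consensus and 229 bases for the 384-base CER consensus in PB cells without dox, so the TPM of HSAT5 rests on a short stretch. GSATII followed with 23.1 to 39.7 TPM, HSATII with 15.6 to 33.9 TPM and HSAT4 with 0 to 51.0 TPM. The ranges of these last members overlapped, and their order changed between libraries. GSAT (0.945 to 4.16 TPM), GSATX (0.859 to 2.65 TPM) and HSATI (0.104 to 0.781 TPM) were lowest among the members with reads. Among all 1047 sequences HSAT5 ranked 36th by mean TPM but 317th by mean CPM, which takes no account of length, and CER ranked 234th by mean TPM and 351st by mean CPM.

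**Figure D1:**
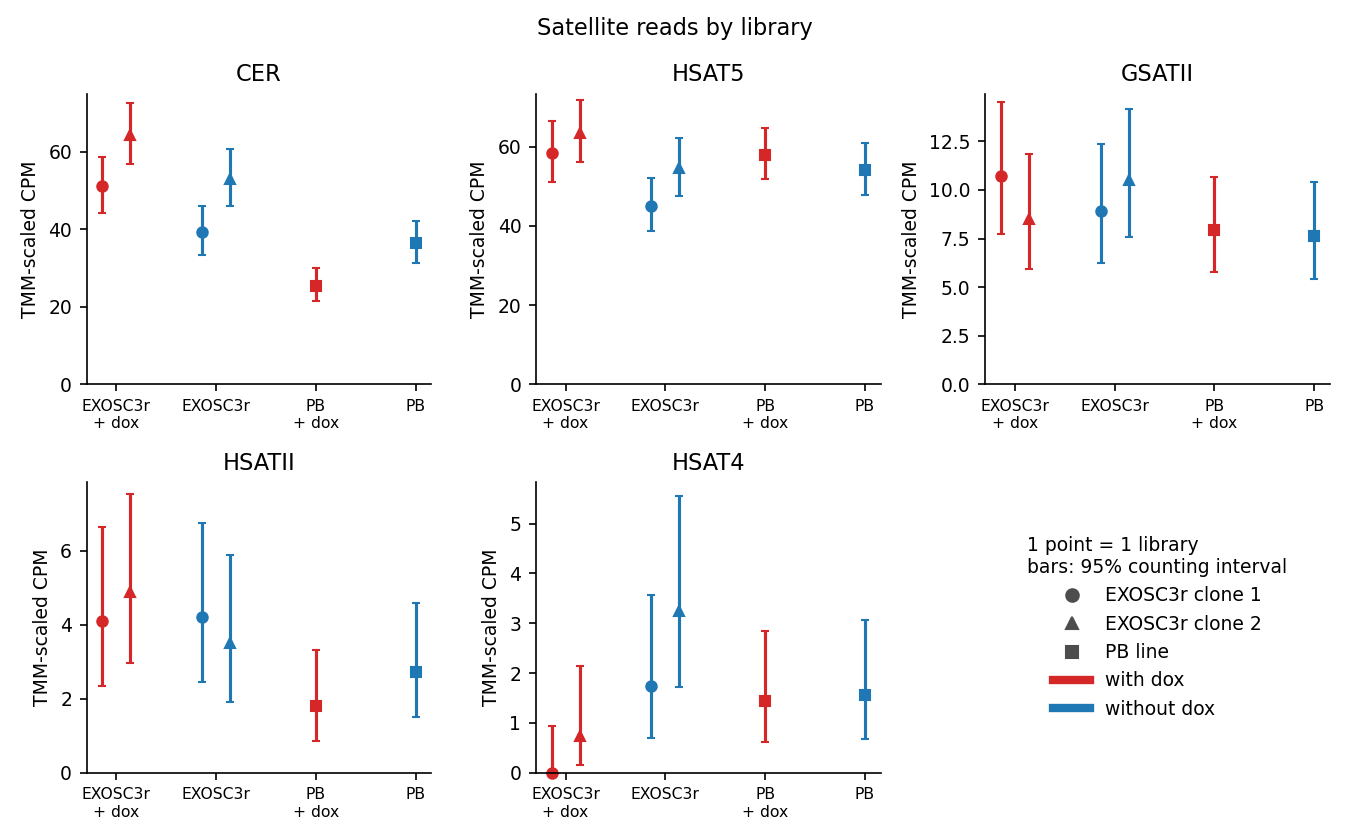
TMM-scaled CPM of the 5 members that reached 10 counts in a library, 1 point per library, with EXOSC3r cells left of PB cells and dox left of no dox; bars are 95% Clopper-Pearson counting intervals. CER lies between 51.1 and 64.3 CPM in EXOSC3r cells with dox and at 25.5 CPM in PB cells with dox (clone 1 is below PB cells relative to ACTB and GAPDH and in TPM), whereas HSAT5 lies between 45.1 and 63.6 CPM in all 6 libraries.

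Differences were tested with edgeR's quasi-likelihood test on the whole table, in which 699 sequences with at least 10 counts in at least 1 library were tested and p-values were adjusted over all of them. Of the members, 5 of 9 were tested (HSAT5, CER, GSATII, HSATII and HSAT4), and GSAT, HSATI, GSATX and HSAT6 were below the minimum. The spread in this test comes from the 2 clones, since each PB arm is 1 library. For each sequence edgeR moderates that spread towards the trend of all tested sequences. The p-values are therefore set against a moderated spread and not against a member's own 2 clones alone. In RNA from bulk cultures, fewer cells that make a transcript and less of it per cell cannot be told apart.

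In PB cells, where the transgene is absent, no tested member passed as changed with dox. In this comparison 6 of 699 sequences were called, 0.858%, against 0 of 5 members. None of the 5 had an unadjusted p under 0.05 in that fit, against 4.01% of all sequences, and DESeq2 and limma on TPM also called 0 of them. In an edgeR fit that gave each line its own level (the line as a block), 1 of 5 members had an unadjusted p under 0.05. This was CER, with a log2 change of -0.52 ± 0.19 (SE). Of all 699 sequences 60 had such a p, and 0 members were called. The log2 changes of the members lay between -0.59 and 0.10 with a median of -0.11, beside a median of 0.00 over all 699 sequences.

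CER had 141 counts in PB cells with dox and 187 in PB cells without, or 25.5 and 36.5 CPM. With TMM scaling, the 2 libraries differed by more than counting error, with a ratio of 0.698 (95% interval 0.557 to 0.873). Relative to ACTB and GAPDH, CER was at 24.4 with dox and 31.1 without, and in deposited TPM at 43.3 and 53.4. The direction was the same, but no counting interval of the ratio was made for these other scalings. Set against the moderated spread between clones, the log2 change was -0.52 ± 0.30 (SE, edgeR, adjusted p = 1.00, 95% interval -1.24 to 0.20).

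HSAT5 had 321 counts in PB cells with dox and 277 in PB cells without, or 58.0 and 54.1 CPM, for a log2 value of 0.10 ± 0.21 (SE; adjusted p = 1.00, edgeR). The interval of that change, -0.41 to 0.61, holds 0. GSATII, a gamma satellite, had 44 counts with dox and 39 without (log2 0.06 ± 0.40), and its interval ran from -0.91 to 1.04.

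HSATII had 10 counts in PB cells with dox and 14 in PB cells without, a log2 change of -0.59 ± 0.64. HSAT4 had 8 counts in each of these libraries. At such counts a change of the size seen for HSATII was not detectable. The gamma satellites together had 50 counts with dox and 46 without, 9.03 and 8.98 CPM, and the HSAT sequences together 342 and 304 counts, 61.8 and 59.3 CPM. With TMM scaling, neither sum differed by more than counting error, with ratios of 1.01 (0.660 to 1.54) and 1.04 (0.889 to 1.22). Relative to ACTB and GAPDH, the GSAT sum was at 8.66 with dox and 7.65 without, and the HSAT sum at 59.3 and 50.5. In deposited TPM, the GSAT sum was at 45.0 and 38.6 and the HSAT sum at 1450 and 1144. No counting interval of the ratio was made for these other scalings.

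A list of 26 other satellite names (ALR, BSR, SATR and SUBTEL names, ACRO1, MER22, 6kbHsap and single names) had 17 tested sequences in the same fit. Of these, 6 rose and 0 fell in PB cells with dox, with a median log2 change of 0.53, against none of the 5 tested members. That list was chosen with earlier results of these data known, and the difference between the lists was not tested.

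In EXOSC3r cells, no tested member was called with dox either, against 1 of 699 sequences, 0.143%. The log2 changes of the members lay between -2.65 and 0.32 with a median of 0.22, beside 0.01 over all sequences. HSAT4 was the 1 member with an unadjusted p under 0.05, against 3.15% of all sequences, and DESeq2 called 0 members. With the line as a block in edgeR, 0 of 5 members had such a p, against 48 of 699 sequences.

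HSAT5 had 228 and 261 counts in EXOSC3r clones 1 and 2 with dox, against 182 and 218 without, or 58.3 and 63.6 CPM against 45.1 and 54.5 CPM. Both libraries with dox were above both without it, which was also so for 15.2% of all tested sequences. It was so with DESeq2 size factors too, but not as shares of assigned counts, relative to ACTB and GAPDH or in TPM, where clone 1 with dox lay below clone 2 without. The means were 60.9 ± 3.74 CPM with dox and 49.8 ± 6.66 CPM without (SD, n = 2 clones each), for a log2 value of 0.29 ± 0.15 (SE, edgeR, adjusted p = 1.00, 95% interval -0.08 to 0.66).

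With the PB line, HSAT5 was higher with dox in 3 of 3 lines, as were 116 of 699 sequences (16.6%). In deposited TPM it was higher in 2 of 3 lines, since clone 1 had 590 TPM with dox and 609 TPM without. The ratio of dox to no dox was 1.29 (1.06 to 1.58) in clone 1, 1.17 (0.971 to 1.40) in clone 2 and 1.07 (0.910 to 1.26) in the PB line. These ratios are with TMM scaling, with which only the interval of clone 1 left out a ratio of 1. Which line rose most depended on the scaling. In TPM, HSAT5 stood at 1402 with dox and 1093 without in the PB line, and at 1178 and 936 in clone 2. Relative to ACTB and GAPDH, it stood at 55.6 and 46.0 in the PB line and at 49.4 and 38.6 in clone 2. No counting interval of the ratio was made for these other scalings. In CPM without TMM scaling (shares of assigned counts), HSAT5 in clone 1 stood at 43.3 with dox and 39.4 without. The counting intervals of these shares, 37.9 to 49.4 and 33.9 to 45.5, overlapped.

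CER had 200 and 264 counts in clones 1 and 2 with dox, against 159 and 212 without, or 51.1 and 64.3 CPM against 39.4 and 53.0 CPM. The groups overlapped, because clone 2 without dox was above clone 1 with dox. With TMM scaling, the library with dox was the higher one within each clone, by a ratio of 1.30 (1.05 to 1.61) in clone 1 and 1.21 (1.01 to 1.46) in clone 2. In CPM without TMM scaling (shares of assigned counts), CER in clone 1 stood at 38.0 with dox and 34.4 without. The counting intervals of these shares, 32.9 to 43.7 and 29.3 to 40.2, overlapped. In deposited TPM, CER in clone 1 was at 38.0 with dox and 38.4 without. In clone 2 CER was higher with dox both as a share (70.5 against 53.8) and in TPM (85.8 against 64.0). The log2 change was 0.32 ± 0.20 (SE, edgeR, adjusted p = 1.00, 95% interval -0.17 to 0.82).

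GSATII had 42 and 35 counts in clones 1 and 2 with dox, against 36 and 42 without, so that the clones went opposite ways, and its log2 change was -0.01 ± 0.29. HSATII had 16 and 20 counts with dox, against 17 and 14 without (log2 0.22 ± 0.41). HSAT4 had 0 and 3 counts with dox, against 7 and 13 without.

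HSAT4 reached the minimum of 10 counts only in clone 2 without dox, so the fact that it was tested already needed a high value there. Its log2 change was -2.65 ± 1.04 (SE, edgeR, adjusted p = 1.00, 95% interval -5.16 to -0.14). In clone 2, the clone that passed the minimum, the ratio of dox to no dox was 0.225 with a counting interval of 0.0411 to 0.818. In clone 1, with 0 counts against 7, the counting interval ran from 0 to 0.716. On TPM values, limma called it with a pseudocount of 1 (adjusted p = 2.9e-05) and of 0.1 (adjusted p = 4.6e-12), where the library with 0 counts enters as the pseudocount. Over the 12 alternatives that tested it, this adjusted p lay between 4.6e-12 and 1.00.

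The gamma satellites together were at 10.8 ± 2.13 CPM with dox and 11.0 ± 0.423 CPM without (SD, n = 2 clones each), and the HSAT sequences together at 66.0 ± 4.80 and 56.6 ± 7.58 CPM. HSAT5 made up between 87.9% and 93.9% of the HSAT counts in a library, and GSATII between 83.7% and 93.3% of the GSAT counts, so each sum mostly repeats 1 member. The members below the minimum were not tested. GSAT had 4 and 1 counts in clones with dox against 5 and 2 without, HSATI 1 and 1 against 1 and 3, and GSATX 2 and 2 against 2 and 1.

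**Figure D2:**
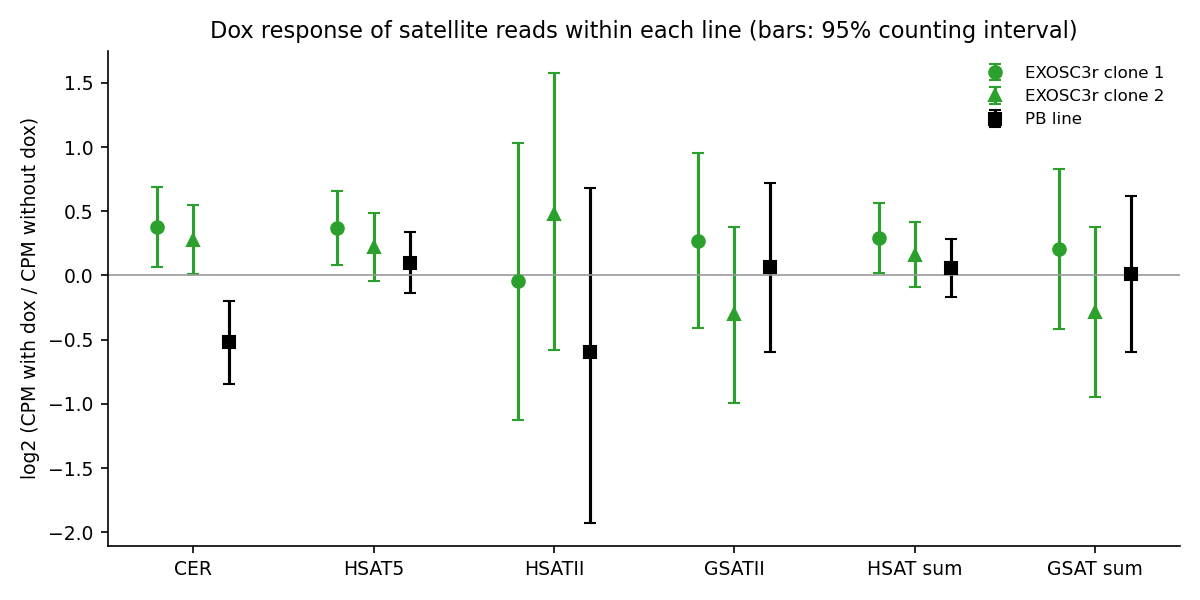
Log2 ratio of TMM-scaled CPM with dox to that without dox in EXOSC3r clone 1, EXOSC3r clone 2 and the PB line, for 4 members and the HSAT and GSAT sums; bars are 95% counting intervals from the 2 libraries of a line. CER lies at 0.38 and 0.28 in the clones and at -0.52 in the PB line, and the HSAT sum lies between 0.06 and 0.29 in all 3 lines, whereas in deposited TPM both were lower with dox in clone 1.

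The dox responses of PB and EXOSC3r cells were then compared directly. No member was called in the edgeR interaction test, as was no sequence of the 699 (0%), no member had an unadjusted p under 0.05, against 1.29% of sequences, and DESeq2 called 0 members. CER had the lowest unadjusted p of the members, at rank 13 of 699. Its response in PB cells minus that in EXOSC3r cells was -0.84 ± 0.36 on the log2 scale (SE, edgeR, adjusted p = 1.00, 95% interval -1.71 to 0.03). That fit counts the gap between the clones as error. With the line as a block, which does not, the value for CER was -0.84 ± 0.24 (SE, edgeR, adjusted p = 0.76). In that block fit 1 of 5 members, CER, had an unadjusted p under 0.05, as did 33 of 699 sequences.

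CER was lower with dox in the PB line and higher in both clones, a pattern shared by 75 of 699 sequences (10.7%). These directions were the same with TMM, with DESeq2 size factors, as shares of assigned counts and relative to ACTB and GAPDH, but not in deposited TPM, where CER in clone 1 stood at 38.0 with dox and 38.4 without. For HSAT5 the difference of responses was -0.19 ± 0.26, for HSATII -0.81 ± 0.76 and for GSATII 0.08 ± 0.50, and the interval of each held 0. HSAT4 had a difference of 2.54 ± 1.56, which limma called on log2(TPM + 0.1) (adjusted p = 0.00065) but not on log2(TPM + 1) (adjusted p = 0.14). In both, the library with 0 counts enters as the pseudocount. HSAT4 was tested only through its value in clone 2 without dox, which is part of this difference. When 1 clone library was left out, the difference of HSAT4 lay between 1.63 and 6.40.

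Between lines, the member with the smallest p-value was CER under dox. It had 51.1 and 64.3 CPM in EXOSC3r clones 1 and 2 with dox, against 25.5 CPM in PB cells with dox. Both clones were above the PB line, as for 34.2% of all tested sequences, by a ratio of 2.01 (1.61 to 2.51) in clone 1 and 2.53 (2.05 to 3.12) in clone 2. The log2 difference was 1.18 ± 0.26 (SE, 95% interval 0.54 to 1.82) and ranked 10th highest of 699, but it did not pass in edgeR's test over all sequences (adjusted p = 0.34).

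In this comparison 7 of 699 sequences were called, 1%, all lower in EXOSC3r cells, against 0 of 5 members. CER was the 1 member with an unadjusted p under 0.05, against 7.58% of all sequences, and DESeq2 called 0 members. With the line as a block CER had a log2 difference of 1.17 ± 0.17 and passed (edgeR, adjusted p = 0.046). That block fit has 1 residual degree of freedom and called 22 of 699 sequences. Since the comparison is between lines, that fit no longer counts how far the clones lie apart as error. Over all 13 alternatives the log2 difference, relative to any median shift of all sequences, lay between 1.00 and 1.33 and the adjusted p between 0.046 and 0.76.

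The direction held in clone 2 under all 5 scalings, whereas in clone 1 it turned under 2 of them, ACTB and GAPDH and deposited TPM. As a share of assigned counts, CER took 38.0 and 70.5 of every 1000000 counts in clones 1 and 2 with dox, against 30.9 in PB cells with dox. For every 100000 counts of ACTB and GAPDH, it had 23.5 and 50.0 counts in the clones, against 24.4 in PB cells, so that clone 1 was slightly below the PB line. In deposited TPM it stood at 38.0 and 85.8 in the clones, against 43.3 in PB cells. Scaling to ACTB and GAPDH moved the median of all sequences by -0.64 on the log2 scale in this comparison. The share of ACTB and GAPDH in assigned counts was 16.2% and 14.1% in the clones with dox, against 12.6% in PB cells with dox, and its part in the result was not tested.

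The make-up of the satellite reads needs no scaling between libraries. CER took 40.6% (95% Clopper-Pearson interval 36.2 to 45.0) and 45.0% (40.9 to 49.1) of all member reads in clones 1 and 2 with dox, against 26.5% (22.8 to 30.4) in PB cells with dox. Without dox it took 38.9% (34.1 to 43.8) and 42.0% (37.6 to 46.4) in the clones, against 34.8% (30.8 to 39.0) in PB cells. The interval of the PB library with dox lay below those of all 4 EXOSC3r libraries, whereas that of the PB library without dox overlapped those of the clones without dox and of clone 1 with dox. HSAT5 took 60.2% (55.9 to 64.4) of member reads in PB cells with dox and 51.6% (47.3 to 55.9) in PB cells without.

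**Figure D3:**
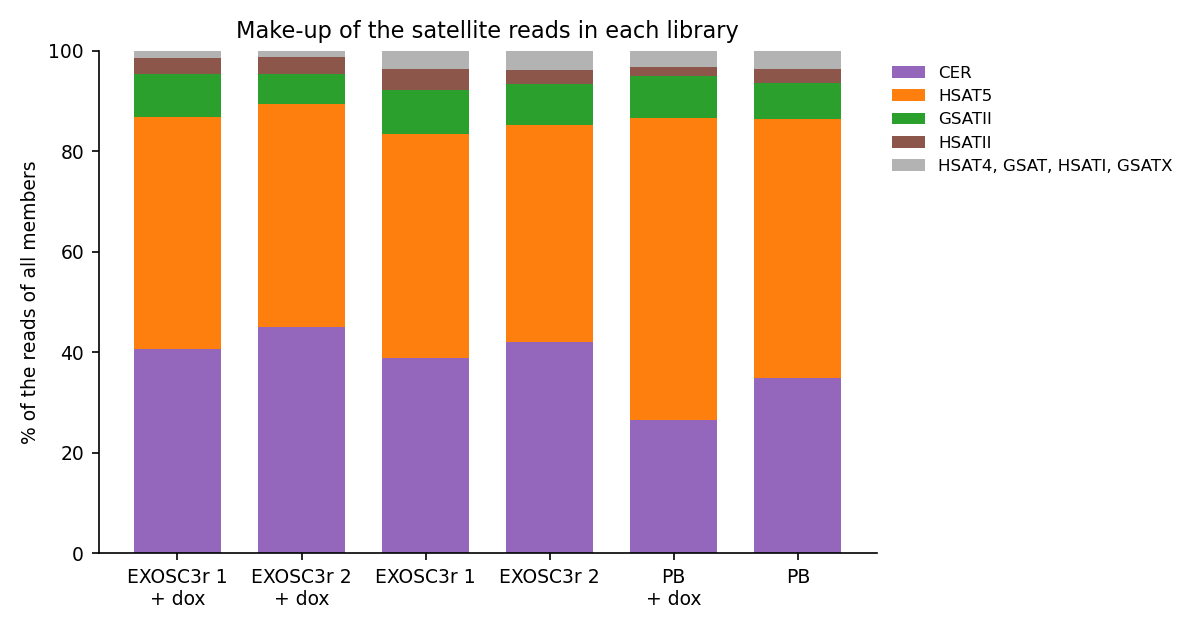
Make-up of the reads of all members in each library, in % of their estimated counts, with EXOSC3r libraries left of PB libraries and dox left of no dox. CER takes between 38.9% and 45.0% in the 4 EXOSC3r libraries, 26.5% in PB cells with dox and 34.8% in PB cells without.

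HSATII was also low in the PB library with dox, with 16 and 20 counts in clones 1 and 2 with dox, against 10 in PB cells with dox, or 4.09 and 4.87 CPM against 1.81 CPM. The log2 difference of 1.30 ± 0.55 ranked 8th highest of 699 and did not pass (edgeR, adjusted p = 0.61, 95% interval -0.03 to 2.63). In clone 1 the counting interval of the ratio to PB cells, 0.966 to 5.58, held 1, and in clone 2 it ran from 1.21 to 6.45.

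For HSAT5, with 58.3 and 63.6 CPM in the clones with dox and 58.0 CPM in PB cells with dox, the log2 difference was 0.07 ± 0.18 and its interval ran from -0.37 to 0.52. GSATII had 10.7 and 8.52 CPM in the clones and 7.95 CPM in PB cells (log2 0.28 ± 0.35, 95% interval -0.57 to 1.12). HSAT4 had 0 and 3 counts in the clones and 8 in PB cells (log2 -1.88 ± 1.25). On TPM, limma called it with a pseudocount of 1 (adjusted p = 0.0047) and of 0.1 (adjusted p = 2.5e-07), where the library with 0 counts enters as the pseudocount. The log2 difference of HSAT4 lay between -5.74 and -0.96 when 1 clone library was left out. The GSAT sum was at 10.8 ± 2.13 CPM and the HSAT sum at 66.0 ± 4.80 CPM in EXOSC3r cells with dox (SD, n = 2 clones), against 9.03 and 61.8 CPM in PB cells with dox.

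For HSAT5, GSATII and the sums, the side on which the clones lay under dox depended on the scaling. As shares of assigned counts, relative to ACTB and GAPDH and in TPM, HSAT5, GSATII and the GSAT sum were below PB cells in both clones, for example GSATII at 7.98 and 9.35 of every 1000000 counts in clones 1 and 2 against 9.64 in PB cells. HSAT5 in clone 1 was also just below PB cells with DESeq2 size factors. The HSAT sum was below PB cells in both clones relative to ACTB and GAPDH and in TPM, and in clone 1 as a share. HSATII was above PB cells in both clones with every scaling but TPM, where clone 1 stood at 15.6 and PB cells at 15.9.

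Of the other satellites, 6 of 17 tested were lower in EXOSC3r than in PB cells under dox and 0 were higher, with a median log2 difference of -0.63, against a median of 0.28 for the 5 members and 0.01 for all 699 sequences. This comparison and the dox response of PB cells share the PB library with dox. As above, the list of other satellites was chosen with earlier results of these data known, and the difference between the lists was not tested. The medians are from the fit with TMM scaling.

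**Figure D4:**
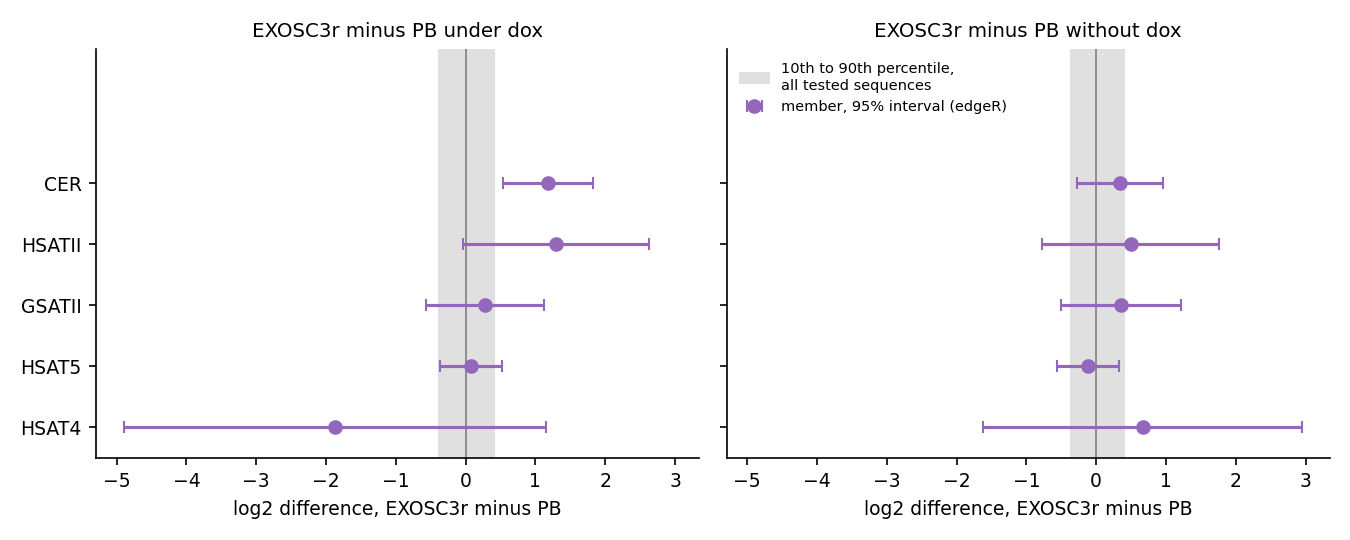
Log2 difference of EXOSC3r minus PB cells under dox and without dox for the 5 tested members, with 95% intervals from edgeR with TMM scaling; the grey band spans the 10th to 90th percentile of all 699 tested sequences. CER lies at 1.18 under dox and at 0.34 without, and HSAT5 at 0.07 and -0.12.

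Without dox, edgeR called 0 of 5 members and 0 of 699 sequences (0%) for EXOSC3r against PB cells. No member had an unadjusted p under 0.05, against 2.29% of sequences, and DESeq2 and limma on TPM called 0 members. CER had 39.4 and 53.0 CPM in clones 1 and 2, against 36.5 CPM in PB cells (log2 0.34 ± 0.26, adjusted p = 0.97, 95% interval -0.28 to 0.96). With TMM scaling, clone 1 was within counting error of the PB line, with a ratio of 1.08 (0.868 to 1.34). Clone 2 was above it, with a ratio of 1.45 (1.19 to 1.78). Relative to ACTB and GAPDH, CER was at 20.2 and 37.5 in clones 1 and 2, against 31.1 in PB cells. In deposited TPM it was at 38.4 and 64.0, against 53.4. No counting interval of the ratio was made for these other scalings, so both verdicts hold for TMM only.

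Clone 2 also had more CER reads than clone 1, by a ratio of 1.26 (1.04 to 1.52) with dox and 1.35 (1.09 to 1.66) without, so the clones themselves differed by more than counting error. HSAT5 had 45.1 and 54.5 CPM in clones 1 and 2 without dox, against 54.1 CPM in PB cells (log2 -0.12 ± 0.19). HSATII stood at 4.21 and 3.50 CPM in the clones and 2.73 CPM in PB cells (log2 0.49 ± 0.53), and GSATII at 8.92 and 10.5 CPM against 7.61 CPM (log2 0.35 ± 0.35). Directions without dox also turned: as a share, relative to ACTB and GAPDH and in TPM, CER and GSATII were above PB cells in 1 of 2 clones and HSAT5 in 0 of 2, and HSATII in clone 1 was below PB cells relative to ACTB and GAPDH (2.16 against 2.33).

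Taking dox and no dox together, all 4 EXOSC3r libraries lay above both PB libraries for 3 of the 5 tested members, CER, HSATII and GSATII, as for 11.6% of all tested sequences. This held with DESeq2 size factors, where the background was 10%. As shares of assigned counts and relative to ACTB and GAPDH it held for 0 members, with backgrounds of 2.15% and 0.429%.

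**Figure D5:**
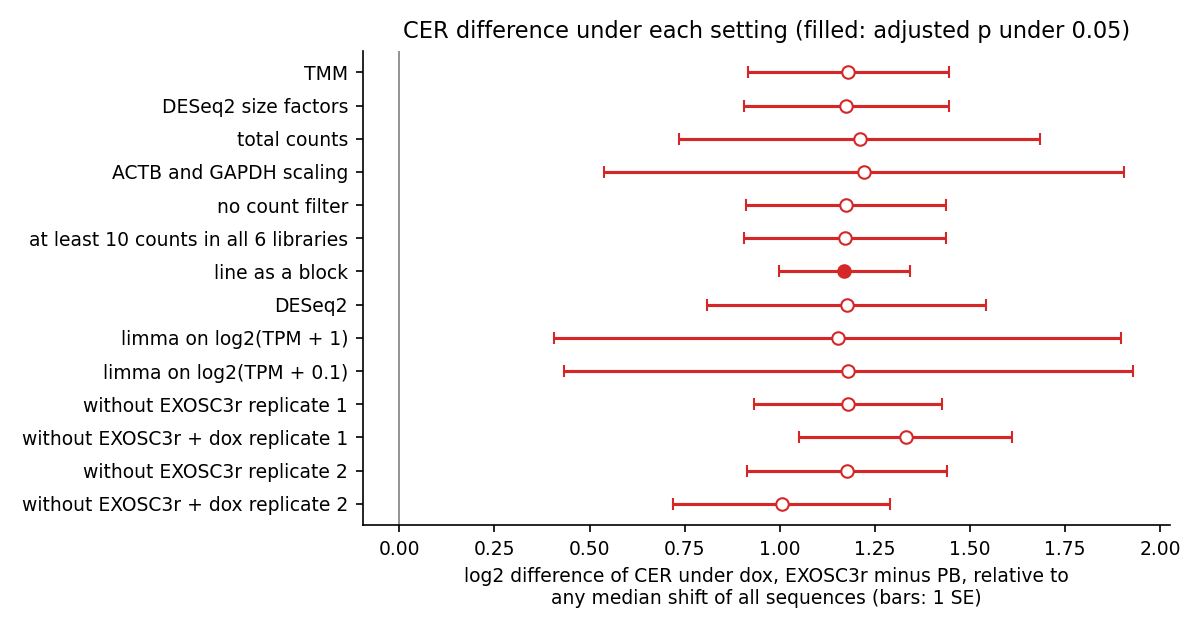
Log2 difference of CER under dox, EXOSC3r minus PB cells, with each scaling, tool, filter and left-out library; bars are 1 SE, and filled points passed at an adjusted p of 0.05. Where a setting moved the median of all sequences by more than 0.1, that shift was taken off, for example -0.40 for total counts and -0.64 for ACTB and GAPDH. The nearness of the points across scalings is therefore partly built in, and clone 1 lies below PB cells relative to ACTB and GAPDH and in TPM. The points lie between 1.00 and 1.33, and the fit with the line as a block is the filled one.

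The sequences whose levels followed those of a member most closely were sought among the 441 others with a mean of at least 100 counts, by the root mean square difference of centred log2 CPM over the 6 libraries. For HSAT5 they were LTR22A, MER61F and MER82, at 0.0762, 0.0762 and 0.0774, against a median of 0.184 over the 441 sequences. For CER they were LTR73, MER5A and LTR40B, at 0.249, 0.287 and 0.287, with a median of 0.440. For the HSAT sum, the closest were LTR71A, LTR22A and LTR12F (0.0615, 0.0658 and 0.0703), and for the GSAT sum CHARLIE5, MER83 and HSMAR2 (0.0578, 0.0766 and 0.0831). With TMM scaling, CER varied more over the libraries than HSAT5, with an SD of centred log2 CPM of 0.470 against 0.165. That order depended on the scaling. Relative to ACTB and GAPDH, CER ran from 20.2 to 50.0 and HSAT5 from 23.2 to 55.6, ranges of similar relative width. In deposited TPM, CER ran from 38.0 to 85.8 and HSAT5 from 590 to 1402, again of similar relative width. With 6 libraries and 441 candidates, such matches describe these libraries only.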

How the data were processed

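RNA from 6 libraries was measured after removal of ribosomal RNA, with a stranded total RNA kit, per the labels' protocols. The tools were Salmon 0.13.0, Trimmomatic 0.36 and bcl2fastq 2.17, per the submitters' processing notes; index, options and genome build are not given in the sources used here. The deposited tables hold, per the file headers, estimated counts, which are not normalised, and TPM values, which the authors' tool scaled to 1000000 over these 1047 sequences alone. Length and effective length are other columns of the same deposited tables. Estimated counts were rounded to whole numbers.

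Sequences with at least 10 counts in at least 1 library were tested (699 of 799 with any count) with edgeR 4.0.16 (R 4.3.3), quasi-likelihood test, TMM scaling, 4 group means, 2 residual degrees of freedom and Benjamini-Hochberg adjustment at 0.05. A PB arm with its single library is taken to vary as the clones do. The SE is the log2 change divided by the square root of F. The biological coefficient of variation was 12.2%. Ratios of 2 libraries have exact binomial intervals. The sums were not tested. The code was tested on simulated data.

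Members and lists were chosen with earlier results of these data known; all members are named by rule, and the most similar sequences by a fixed distance. The clone numbers pair the samples, since both libraries of a clone come from 1 line: clone deviations without and with dox correlated at 0.15 over 699 sequences and at 0.60 over the 253 with at least 100 CPM. Alternatives were DESeq2 1.42.0 and its size factors, total counts, scaling to ACTB and GAPDH, other filters, limma 3.58.1 on log2(TPM + 1) and log2(TPM + 0.1), the line as a block, and leaving out each clone library. No pair of libraries was a copy of another (lowest chi-square per degree of freedom 20.9). No sequence is printed, since none of the sources used here holds the consensus sequences.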

Additional observations from a re-analysis of the deposited data

Results flagged for a closer look

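The summed reads of all 9 members were lower with dox in the PB line, at 96.2 CPM with dox and 105 CPM without, and higher with dox in both EXOSC3r clones, at 126 and 143 CPM with dox against 101 and 126 CPM without. The log2 ratio of dox to no dox was -0.12 in the PB line, 0.31 in clone 1 and 0.18 in clone 2, so the PB value was below the mean of the clones, with a difference of -0.37. What set it apart is that the only PB pair and both clone pairs went opposite ways. This difference was not tested, and 75 of 699 tested sequences (10.7%) had the same directions. The fall in the PB line came from CER, at 25.5 CPM with dox and 36.5 CPM without. The GSAT sum (9.03 and 8.98 CPM) and the HSAT sum (61.8 and 59.3 CPM) were not lower with dox there. The pattern depended on the scaling: relative to 100000 ACTB and GAPDH counts the PB line had 92.3 with dox and 89.3 without, and all 3 lines were higher with dox. In deposited TPM the sum was 1539 with dox and 1236 without in the PB line, and 670 and 721 in clone 1. In the PB line the counting interval of the ratio, 0.813 to 1.04, held 1.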

How the results depend on the processing

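Counts limit what could be seen: 4 of 9 members never reached 10 counts in a library, and HSATII and HSAT4 stayed at or under 20. All alternatives were planned; log2 values are relative to median shifts of all sequences over 0.1. No member was called in edgeR with TMM. The line as a block called 1 member in EXOSC3r minus PB cells under dox (CER) and changed no other call of a member. With a pseudocount of 1 or 0.1, limma on log2 TPM called 1 member (HSAT4) for dox in EXOSC3r cells and for EXOSC3r minus PB cells under dox, and with 0.1 also 1 (HSAT4) for the difference of responses. Leaving out 1 clone library at a time called 0 members in all 5 comparisons. It moved the log2 ratio of the GSAT sum to between -0.25 and 0.16 for dox in EXOSC3r cells, between -0.16 and 0.26 for the difference of responses and between 0.031 and 0.44 for EXOSC3r minus PB cells under dox. GSATII turned sign among these, from -0.19 to 0.14 for dox in EXOSC3r cells and from -0.083 to 0.26 for the difference of responses, as did HSAT5 for EXOSC3r minus PB cells without dox, from -0.25 to 0.012. Clone 1 without dox decided the last, and the clone 2 libraries the GSATII signs (0.10 and 0.14 without them in EXOSC3r cells, -0.038 and -0.083 for the difference); the cause was not tested. HSAT4 moved most: without clone 2 with dox and without clone 1 with dox its log2 value was -6.51 and -1.74 for dox in EXOSC3r cells, 6.40 and 1.63 for the difference of responses, and -5.74 and -0.96 for EXOSC3r minus PB cells under dox; without clone 2 with dox these are fitted against a lone library at 0 counts and are no bounds.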
